A study of Homo sapiens with 4 samples.

Results

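The genes of interleukin 6 (IL6) family signaling and serum amyloid A were examined after silencing of PRR11 in ACHN, a human renal cell carcinoma cell line. The members are IL6, LIF, IL6R, IL6ST, LIFR, OSMR, STAT3, SOCS3, SAA1 and SAA2, 10 of the 36359 genes in the count table, taken by gene name. They were chosen by their counts in siPRR11 and siNC, so that difference is given for them as a description without a p-value, and no count of members called is evidence for the group. RNA-seq was performed on 2 libraries of cells transfected with a control siRNA (siNC) and 2 libraries of cells transfected with siPRR11. All cells were grown in MEM with fetal bovine serum and antibiotics and were transfected with a lipid reagent, the controls included. Neither the labels nor the methods name the siPRR11 duplex used for a library, how long after transfection RNA was taken, or whether the libraries came from separate cultures. P-values therefore measure the spread between these libraries, which may be technical.

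Cytokines of the IL6 family signal through receptors that share the chain gp130, the product of IL6ST. IL6 first binds IL6R, whereas LIF brings gp130 together with LIFR, and oncostatin M can bring it together with OSMR. The receptors activate JAK kinases, which phosphorylate the transcription factor STAT3, and STAT3 induces SOCS3, an inhibitor that closes the loop. Serum amyloid A is an acute phase protein, made chiefly by the liver in inflammation, and IL6 together with IL1 or TNF is known to induce it. Renal carcinoma cells are known to secrete IL6.

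The libraries held between 59003839 and 92612749 counted reads. TMM factors, by which the library sizes were multiplied for normalization, lay between 0.983 and 1.018. PRR11, the targeted gene, was at 41.3 and 40.4 CPM (the TMM-normalized count relative to library size) in siNC and at 15.3 and 14 CPM in siPRR11, so the labels fit the targeted gene. Among markers of renal epithelium, PAX8 lay between 252.6 and 374.8 CPM and KRT8 between 1169 and 1498 CPM. The 8 renal epithelial markers summed to between 2014 and 2390 CPM in siNC and between 2201 and 2380 CPM in siPRR11. Of these markers, 2 were called higher and 3 lower in siPRR11, while 16.7% of all genes tested were called. PTPRC, which marks leukocytes, stayed at or below 0.069 CPM in every library, and the 4 endothelial markers summed to at most 0.446 CPM. The 4 hepatocyte markers summed to between 2.37 and 2.66 CPM in siNC and between 2.72 and 2.78 CPM in siPRR11. Of the 4 fibroblast markers, COL3A1, PDGFRA and DCN were each below 0.6 CPM. COL1A1 rose from 43.0 and 49.5 CPM to 76.0 and 96.2 CPM, and its part in any result below was not tested. The 5 leukocyte and macrophage markers in the table summed to between 49.6 and 60.5 CPM in siNC and between 60.0 and 66.0 CPM in siPRR11, most of it CD68, a lysosomal protein that other cells also make, which was not called. ITGAM, an integrin of myeloid cells, was the only one of these markers called, and it rose from 4.22 and 4.19 CPM to 5.64 and 5.68 CPM. The part of these markers in the results was not tested.

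The start region of IL6 is shown because IL6 differed so strongly between libraries of the same group (described further on). In RefSeq (GRCh38.p14) the 250 bases before the transcription start lie at chr7:22726950-22727199 on the plus strand. In this sequence the first run of capitals is a match to the C/EBP element TTNNGCAA, read on the minus strand, and the second is a match to the NF-kB consensus.
IL6: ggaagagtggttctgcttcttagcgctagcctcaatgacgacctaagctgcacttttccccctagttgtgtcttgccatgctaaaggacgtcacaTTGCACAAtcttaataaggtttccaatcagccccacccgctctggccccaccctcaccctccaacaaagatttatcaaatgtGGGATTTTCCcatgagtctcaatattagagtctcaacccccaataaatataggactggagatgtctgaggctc
The C/EBP match runs from position -155 to -148 and the NF-kB match from -73 to -64, counted from the start. RefSeq windows from 250 bases before to 50 bases after the start were at hand for 7 members, with several starts for LIFR and SOCS3. LIF, SAA1 and SAA2 had no entry. Besides IL6, the NF-kB consensus occurred in the window of IL6ST (-53 to -44), and the C/EBP element in that of OSMR (-73 to -66) and in 1 window of LIFR (-31 to -24). The STAT element TTCNNNGAA occurred only in LIFR, as TTCCTTGAA (-165 to -157) in 1 window and TTCATCGAA (-182 to -174) in another. TATAAA, the fourth motif searched, was found only in a window of LIFR. Both strands were searched, and 7.66% of 35116 windows of the same length held the STAT element, 10.5% the C/EBP element, 11.3% the NF-kB consensus and 11.5% TATAAA. A match is a description of letters and not of binding.

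To describe the member mRNAs after PRR11 silencing, the counts were compared by edgeR's quasi-likelihood test over the 21630 genes with enough reads. A gene was called at a Benjamini-Hochberg adjusted p-value under 0.05. For the members, calls here and under other settings reuse the values by which they were chosen. They are a description and not evidence of a difference. All 10 members were tested and 5 were called. SAA1 and IL6R were higher in siPRR11, and STAT3, LIF and LIFR were lower. Over all genes tested 16.7% were called, 7.61% higher and 9.14% lower in siPRR11. When limma on log2(RPKM + 1) replaced the test on counts, 1091 genes were higher and 684 lower, against 1645 and 1977 in the test on counts, so the balance of directions over all genes depended on this choice. For 7 members both siPRR11 libraries lay on the same side of both siNC libraries, which held for 58.4% of all genes tested. The median log2 fold change was 0.08 for the members and 0.00 for all genes tested. In bulk RNA, fewer cells making a transcript and less of it per cell cannot be told apart.

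**Figure D1:**
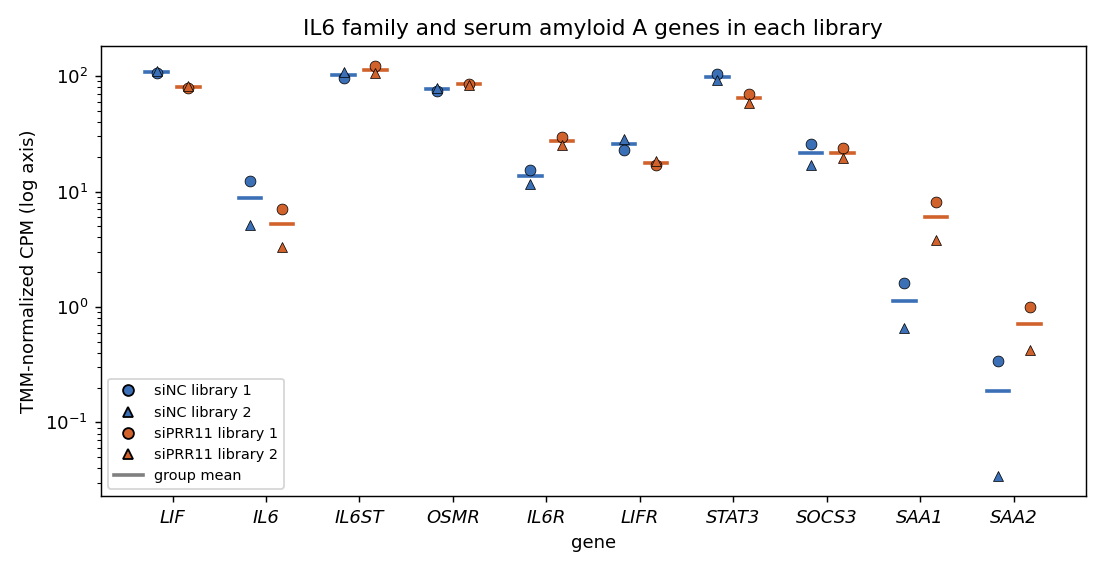
TMM-normalized CPM (log axis) of the 10 members, with circles for library 1, triangles for library 2, blue for siNC, orange for siPRR11, and a line for each group mean. SAA1 is separated between groups (0.655 and 1.62 against 3.79 and 8.15 CPM), IL6 overlaps, and in both genes library 1 lies above library 2 of the same group.

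LIF, a cytokine known for keeping embryonic stem cells undifferentiated, was the ligand with the higher level in every library. LIF (GRCh38 chromosome 22, 30240447 to 30246851, minus strand) was at 106.6 and 109.6 CPM in siNC and at 78.6 and 82.8 CPM in siPRR11. The groups did not overlap, and the libraries of a group differed little. The log2 fold change of LIF was -0.42 (standard error 0.0742), and it lay between -0.46 and -0.39 with any library left out.

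IL6 itself, on chromosome 7 from 22725884 to 22732002 on the plus strand, was at 12.4 and 5.14 CPM in siNC and at 7.10 and 3.32 CPM in siPRR11. The groups overlapped, since siPRR11 library 1 lay above siNC library 2. IL6 was not called in the main test, and its log2 fold change of -0.76 (standard error 0.358) depended on single libraries. It was 0.02 without siNC library 1, -1.24 without siNC library 2, -1.41 without siPRR11 library 1 and -0.32 without siPRR11 library 2. IL6 was called in 4 of 12 other settings, among them without siNC library 2 and without siPRR11 library 1. An antisense gene covers 20.7% of the exonic bases of IL6, and the use of strand in counting is not stated. In each library LIF exceeded IL6 per exonic length, by 4.49 and 11.1 times in siNC and by 5.78 and 13 times in siPRR11.

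IL6R, the receptor chain that binds IL6 and that is also shed in a soluble form, had the largest relative difference among the receptors. IL6R, on chromosome 1 from 154405193 to 154469450 on the plus strand, was at 15.5 and 11.6 CPM in siNC and at 29.96 and 25.2 CPM in siPRR11. Both siPRR11 libraries lay above both siNC libraries, and no exonic base was shared with another gene of the table. This was a log2 fold change of 1.02 (standard error 0.135), and leaving out any library kept it at 0.83 to 1.25.

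LIFR, the chain that pairs with gp130 for LIF, changed the other way. It lies on chromosome 5 from 38474963 to 38608354 on the minus strand and was at 22.8 and 28.4 CPM in siNC and at 16.9 and 18.3 CPM in siPRR11. The groups did not overlap. LIFR differed by a log2 fold change of -0.53 (standard error 0.113), and the call was lost in both limma fits on RPKM. The antisense gene LIFR-AS1 covers 5.3% of the exonic bases.

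OSMR, the oncostatin M receptor chain, starts 237.5 kb beyond LIFR on chromosome 5, from 38845858 to 38945596 on the plus strand. It was at 74.3 and 79.3 CPM in siNC and at 85.9 and 84.0 CPM in siPRR11. The siPRR11 libraries were the higher ones, yet the log2 fold change of 0.15 (standard error 0.0756) was not called under any setting.

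IL6ST, which encodes gp130, was the most abundant receptor mRNA in CPM. It was at 96.0 and 108.5 CPM in siNC and at 121.3 and 106.4 CPM in siPRR11, and the groups overlapped. The difference, 0.16 on the log2 scale (standard error 0.0892), was not called. Per exonic length, IL6ST exceeded IL6R by 4.30 and 6.5 times in the siNC libraries and by 2.81 and 2.94 times in the siPRR11 libraries. IL6R was at 1.25 and 0.751 times LIFR in the siNC libraries and at 3.25 and 2.52 times LIFR in the siPRR11 libraries. In both ratios the groups did not overlap, and both rest on the differences in IL6R and LIFR given above.

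STAT3, the transcription factor that receives the signal, was lower in siPRR11. STAT3, on chromosome 17 from 42313324 to 42388568 on the minus strand, was at 104.8 and 92.3 CPM in siNC and at 70.3 and 58.1 CPM in siPRR11. Each siPRR11 library lay below each siNC library. On the log2 scale STAT3 differed by -0.62 (standard error 0.1), and by -0.76 to -0.49 with any library left out. Limma on log2(RPKM + 1) did not call STAT3. The counts carry no information on phosphorylated STAT3.

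SOCS3, the inhibitor that STAT3 induces, was at 25.8 and 17 CPM in siNC and at 23.8 and 19.4 CPM in siPRR11. The siPRR11 values lay inside the siNC range. A log2 fold change of 0.01 (standard error 0.163) was obtained, which ranged from -0.25 without siNC library 2 to 0.35 without siNC library 1, and SOCS3 was called under no setting. No exonic base of STAT3 or SOCS3 was shared with another gene of the table.

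SAA1 had the largest log2 fold change of the members and, with it, a wide spread inside each group. SAA1, on chromosome 11 from 18266174 to 18269977 on the plus strand, held 132 and 38 reads in siNC and 768 and 324 reads in siPRR11. These are 1.62 and 0.655 CPM in siNC and 8.15 and 3.79 CPM in siPRR11. The groups did not overlap, although library 1 was more than 2-fold above library 2 in each of them. SAA1 was 5.08-fold higher in siPRR11, a log2 fold change of 2.34 (standard error 0.377). It was 9.10-fold without siNC library 1 and 3.24-fold without siPRR11 library 1. Limma on log2(RPKM + 1) did not call SAA1.

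SAA2, the neighboring paralog on the opposite strand, lies 17.5 kb before SAA1, from 18239223 to 18248643 on chromosome 11. It held 28 and 2 reads in siNC and 95 and 36 reads in siPRR11, or 0.343 and 0.0345 CPM against 1.01 and 0.421 CPM. The groups did not overlap, but siPRR11 library 2 was close to siNC library 1. The log2 fold change of 1.80 (standard error 0.634) was not called in the main test, and was 4.32 without siNC library 1, 1.07 without siNC library 2 and 1.05 without siPRR11 library 1. It was called in 5 of the 11 other settings in which it was tested, among them without siNC library 1 and without siPRR11 library 2. The annotated read-through gene SAA2-SAA4 held 11 and 0 reads in siNC and 53 and 30 in siPRR11, while SAA4, a serum amyloid A gene made constitutively by the liver, held 0, 0, 0 and 1 read. SAA2-SAA4 was called higher in the main test (log2 fold change 2.56, standard error 0.722) but not by DESeq2. Its bases are shared with SAA2 or SAA4, so this call too is a description.

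Reads of the serum amyloid A genes cannot be assigned with certainty. In the GENCODE release 44 transcripts, 34.2% of the distinct 50-base windows of SAA1 also occur in SAA2, as do 20.1% of the 100-base windows and 8.94% of the 150-base windows. Of the 100-base windows of SAA2, 14.9% occur in another gene, 11.2% in SAA1. Among the other 8 members, sharing at 100 bases was at most 6.06%, the value of IL6 with its antisense RNA. All exonic bases of SAA2-SAA4 are shared with SAA2 or SAA4, and it still holds reads, so reads in shared bases were not all discarded. When the reads of SAA1, SAA2 and SAA2-SAA4 were summed into 1 feature, a choice made after the overlap had been seen, the log2 fold change was 2.30 (standard error 0.4). The handling of reads that overlap several genes is not stated, so a read counted for both SAA2 and SAA2-SAA4 may enter this sum repeatedly. Of the reads on SAA1 and SAA2, SAA1 took 82.5% (95% exact interval 75.7 to 88) and 95% (83.1 to 99.4) in siNC and 89.0% (86.7 to 91.0) and 90% (86.4 to 92.9) in siPRR11. These intervals cover counting error only, and are too narrow if both reads of a pair were counted, which is not stated. The share of SAA1 in siPRR11 thus lay between the shares of the siNC libraries.

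Levels were compared between genes as CPM per kilobase of exonic length. In siNC the order was LIF (27.2), STAT3 (11.2), IL6ST (11), OSMR (10.7), SOCS3 (7.82), IL6 (4.23), LIFR (2.16), IL6R (2.10), SAA1 (1.48) and SAA2 (0.0847), as means of 2 libraries. STAT3, IL6ST and OSMR overlapped there with their neighbors in the order, as did LIFR, IL6R and SAA1. In siPRR11 the order was LIF (20.3), IL6ST (12.3), OSMR (11.8), SOCS3 (7.90), SAA1 (7.80), STAT3 (7.29), IL6R (4.27), IL6 (2.52), LIFR (1.49) and SAA2 (0.321). SOCS3, SAA1 and STAT3 overlapped, and IL6ST overlapped with OSMR. Thus SAA1 moved from place 9 to 5, IL6R from 8 to 7 and STAT3 from 2 to 6, while LIF stayed highest and SAA2 lowest.

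**Figure D2:**
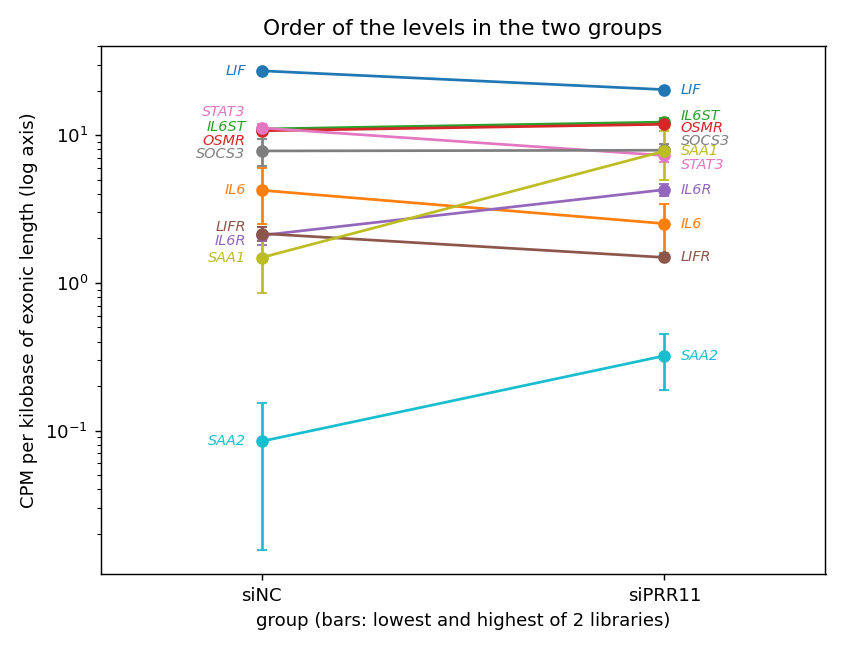
Mean CPM per kilobase of exonic length (log axis) of each member in siNC and siPRR11, with bars from the lowest to the highest of 2 libraries. LIF is highest in both groups (27.2 and 20.3), SAA1 climbs from 1.48 to 7.80, and IL6R and LIFR, which start at 2.10 and 2.16, move apart to 4.27 and 1.49.

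The difference between libraries of the same group was not used in choosing the members. For most genes it was small, with a median absolute log2 difference of 0.17 in siNC and 0.13 in siPRR11. IL6 was 2.41 times higher in siNC library 1 than in siNC library 2, and 2.14 times higher in siPRR11 library 1 than in siPRR11 library 2. SAA1 behaved alike, with 2.46 and 2.15 times. In each group, at least 99.8% of the 2163 genes in the same expression decile differed less between libraries than IL6 or SAA1 did. SOCS3 was 1.52 and 1.23 times higher in library 1, and 99.3% and 95.2% of the genes in its decile differed less. SAA2 was 2.39 times higher in siPRR11 library 1, and in siNC its ratio of 9.93 rests on 28 and 2 reads (95% exact interval 2.5 to 86, counting error only). Whether both reads of a pair were counted is not stated, and if they were, this interval is too narrow. IL6R was 1.34 and 1.19 times higher in library 1, and 96.2% and 92.2% of the genes in its decile differed less. STAT3 was 1.14 and 1.21 times higher, with 77.3% and 97.4% differing less. LIF and OSMR did not share this pattern, with ratios between 0.938 and 1.02. Nor did LIFR (0.803 and 0.923) and IL6ST (0.884 and 1.14). In all, 6 of the 10 members were higher in library 1 in both groups, as were 31.6% of genes tested.

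Among 14193 genes whose average log2 CPM was 1 or more, only 25 were over 1.5 times higher in library 1 than in library 2 in both groups, and IL6 and SAA1 were 2 of them. The threshold and the genes named next were chosen after the values had been seen. Ranked by the smaller of the ratios in siNC and siPRR11, FOS, an immediate early transcription factor, came first with 9.62 and 1.79 CPM in siNC and 8.38 and 1.73 CPM in siPRR11. EGR1, another immediate early gene, was at 12.2 and 4.66 CPM in siNC and at 10.8 and 4.35 CPM in siPRR11. TXNIP, an inhibitor of thioredoxin, was at rank 3, and its ratio was above that of FOS in siNC (6.15 against 5.36) and below it in siPRR11 (2.20 against 4.84). Its relative ARRDC4 was at rank 6, with ratios of 3.13 and 2.09. The chemokine genes CXCL1, CXCL2 and CCL2, the FOS partner JUNB and the growth factor gene HBEGF were also among the 25. Of FOS, EGR1 and the 5 genes named last, none was called between siPRR11 and siNC in the main test, although CXCL2 (log2 fold change -1.04) was called in 6 and CXCL1 (-0.71) in 4 of 12 other settings, the replicate block included for both. The opposite pattern, library 2 over 1.5 times library 1 in both groups, was met by 10 genes. The labels give the libraries a replicate number but no day, batch or culture, so what sets libraries 1 apart from libraries 2 was not tested.

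**Figure D3:**
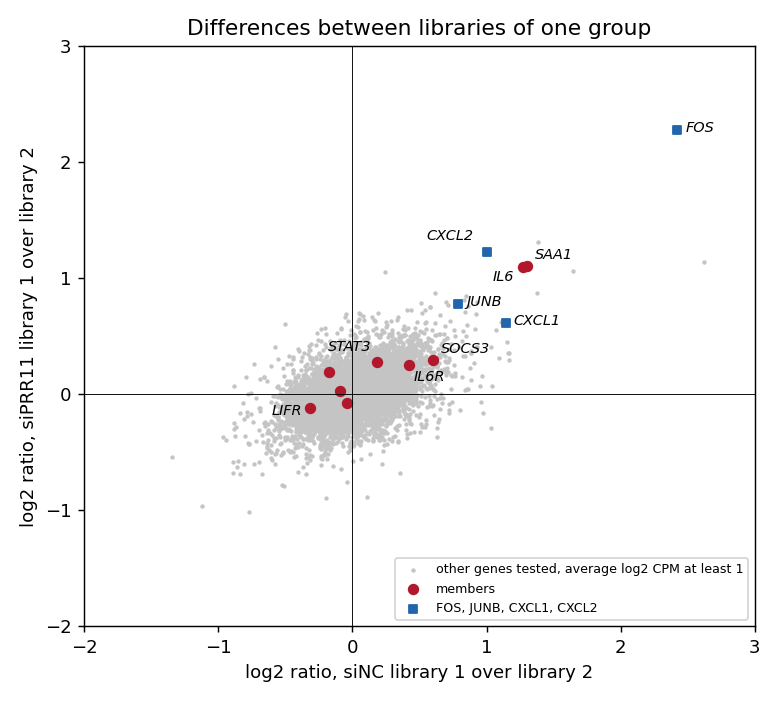
Log2 ratio of library 1 over library 2 in siNC (horizontal) and in siPRR11 (vertical), with grey points for the other genes among these 14193, the members above that level (red, SAA2 left out) and FOS, JUNB, CXCL1 and CXCL2 (blue). IL6 (1.27 and 1.1) and SAA1 (1.30 and 1.1) stand apart from most grey points toward the upper right. FOS lies farther out, as do EGR1 and TXNIP, which are unlabelled grey points. LIFR (-0.32 and -0.12) lies inside the grey cloud.

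Genes with the profile most like those of IL6, SAA1 and IL6R were sought by the Euclidean distance between mean-centred log2 CPM values over the 4 libraries, among 14192 genes. For IL6 they were CXCL1 (distance 0.369), BSPRY (0.387) and CXCL2 (0.413). CXCL2 was at 9.20 and 4.59 CPM in siNC and at 4.71 and 2.01 CPM in siPRR11. For SAA1 they were ACVRL1 (0.879), TNNC1 (1.06) and DNAH10OS (1.16), all farther away than the genes near IL6. ACVRL1, a receptor of the TGF-beta family, was at 1.48 and 0.776 CPM in siNC and at 4.32 and 2.49 CPM in siPRR11. For IL6R they were CCDC15 (0.0158), MYBL1 (0.0967) and SIPA1L2 (0.0989), and MYBL1 was at 63.6 and 50.5 CPM in siNC and at 134.8 and 107.2 CPM in siPRR11. With only 4 libraries such a likeness is a description.

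The other genes of the pathway were taken from 8 lists with 102 genes, of which 99 were in the table. Of the 83 genes tested, 17 were called (20.5%, against 16.7% of all genes), 10 higher and 7 lower in siPRR11, and the median log2 fold change was 0.06. Every adjusted p below comes from the edgeR quasi-likelihood fit, adjusted after Benjamini and Hochberg over the 21630 genes.

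None of the 6 tested genes among the other ligands of the family was called (against 16.7% of all genes). Only 1 had an unadjusted p-value under 0.05. This was CNTF, at 0.367 and 0.328 CPM in siNC and 0.647 and 0.737 CPM in siPRR11. DESeq2 called none of the 6 genes and edgeR's exact test 1, and 1 was called without siNC library 1. CLCF1, a ligand of the CNTF receptor, was the most abundant per length and lay at 8.26 and 5.81 CPM in siNC and 7.95 and 8.31 CPM in siPRR11. OSM, IL27 and IL31 had too few reads for testing, with OSM at no more than 0.0234 CPM in any library.

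ADAM17 is the protease known to shed IL6R from the cell surface. Among the other receptor chains and sheddases it was the only one of 5 tested genes called (20%, against 16.7% of all genes). It fell by 0.51 on the log2 scale (standard error 0.071, adjusted p = 0.000669), from 212.5 and 221.4 CPM to 151.5 and 153.3 CPM. ADAM10, a related sheddase, was at 280.7 and 305.7 CPM in siNC and 320.4 and 342.9 CPM in siPRR11 and was not called (adjusted p = 0.137).

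Among JAK kinases, other STATs and adaptors, 2 of 10 genes rose and none fell (20% called, against 16.7% of all genes). JAK1, the main kinase at gp130, rose from 207.9 and 220.7 CPM to 259.4 and 261.4 CPM, by 0.28 on the log2 scale (standard error 0.0715, adjusted p = 0.0194), and this call was lost without either siPRR11 library. SHC1, an adaptor to the RAS pathway, rose by 0.36 (standard error 0.0833, adjusted p = 0.0118), a call lost without siPRR11 library 2.

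Unlike SOCS3, the inhibitors SOCS1 and SOCS2 were both called, in opposite directions. SOCS1 rose from 0.416 and 0.379 CPM to 1.61 and 1.45 CPM (1.93 on the log2 scale, standard error 0.269, adjusted p = 0.000662). SOCS2, known mainly as an inhibitor of growth hormone signaling, fell from 8.19 and 7.95 CPM to 3.83 and 3.68 CPM (-1.10 on the log2 scale, standard error 0.126, adjusted p = 0.000201). The phosphatase gene PTPN1 rose by 0.44 (adjusted p = 0.00168), and PTPN2 fell by 0.35 (adjusted p = 0.0293), a call lost in 4 of 12 other settings, among them without siNC library 2 and without siPRR11 library 1. In all, 2 of the 14 inhibitor genes rose, 2 fell and 10 were not called (28.6% called, against 16.7% of all genes).

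Of 15 genes known as STAT3 targets, 1 rose, 1 fell and 13 were not called (13.3% called, against 16.7% of all genes). MYC, a growth-promoting transcription factor with many other inputs, fell from 73.5 and 81.0 CPM to 39.0 and 44.5 CPM (log2 fold change -0.89, standard error 0.0901, adjusted p = 9.23e-05). BCL2L1, which encodes the survival protein BCL-XL, rose from 112.5 and 119.2 CPM to 149.5 and 163.6 CPM (0.43, standard error 0.0775, adjusted p = 0.0029). The list's median log2 fold change was -0.06, while STAT3 itself was at -0.62, and a link between them was not tested.

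**Figure D4:**
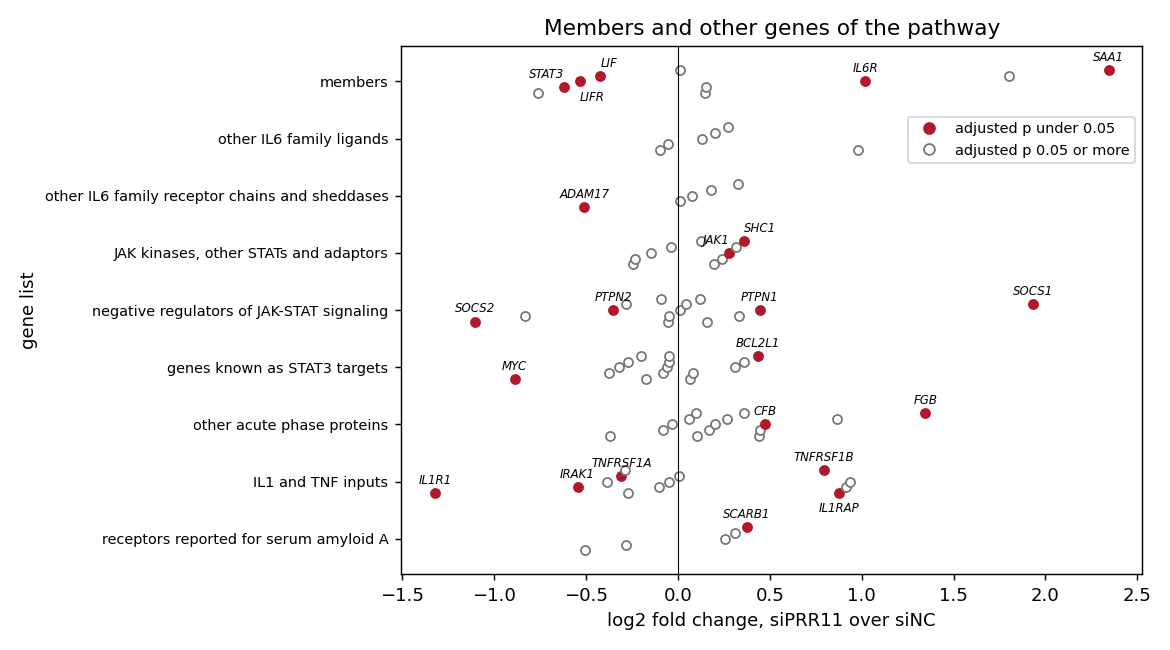
Log2 fold change of siPRR11 over siNC for the members and for the tested genes of 8 lists of other pathway genes, with filled points for genes called in the main test and open points for the others. For the members, the filling reuses the values by which they were chosen. SAA1 (2.34), SOCS1 (1.93) and FGB (1.35) lie farthest to the right among filled points, and IL1R1 (-1.32) and SOCS2 (-1.10) farthest to the left.

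Of the other acute phase proteins, 21 were in the table and 15 could be tested. Of these, 2 rose and none fell (13.3% called, against 16.7% of all genes), with a median log2 fold change of 0.20. FGB, the beta chain of fibrinogen, rose from 0.514 and 0.621 CPM to 1.49 and 1.38 CPM (1.35, standard error 0.259, adjusted p = 0.00444). CFB, the complement factor B gene, rose from 20.4 and 18.6 CPM to 27.7 and 26.4 CPM (0.47, standard error 0.0934, adjusted p = 0.00518). The other fibrinogen genes stayed low, with FGA at no more than 0.382 CPM and FGG at no more than 0.106 CPM in any library. C3 was at 24.5 and 17.1 CPM in siNC and at 35.2 and 21.7 CPM in siPRR11 and was not called (adjusted p = 0.156).

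IL1A, IL1B and TNF, the cytokines of the IL1 and TNF list that had too few reads for testing, were at no more than 0.0743 CPM in any library. IL18, another cytokine of the IL1 family, was at 17.4 and 19.4 CPM in siNC and at 14.4 and 15.8 CPM in siPRR11 and was not called (adjusted p = 0.0799). The decoy receptor gene IL1R2 held at most 0.0468 CPM and was not tested, whereas other receptor genes of the list were called in both directions. IL1R1, the signaling receptor of IL1, fell from 18 and 18.3 CPM to 7.17 and 7.35 CPM (log2 fold change -1.32, standard error 0.102, adjusted p = 1.27e-05). Its partner chain IL1RAP rose from 5.75 and 5.93 CPM to 11.2 and 10.2 CPM (0.88, standard error 0.117, adjusted p = 0.000496). IRAK1, a kinase downstream of these receptors, fell from 198.9 and 197.4 CPM to 135.3 and 136.1 CPM (-0.55 on the log2 scale, adjusted p = 0.000404). Of the TNF receptors, TNFRSF1A fell by 0.31 (adjusted p = 0.0476) and TNFRSF1B rose by 0.79 (adjusted p = 0.0408) on the log2 scale. Both calls were lost in 5 of 12 other settings, among them without siNC library 1 and without siPRR11 library 1, that of TNFRSF1A also without siPRR11 library 2. Of the 13 genes tested in this list, 2 rose, 3 fell and 8 were not called (38.5% called, against 16.7% of all genes).

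SCARB1 is the HDL receptor. Among receptors reported for serum amyloid A it was the only one of 5 tested genes called (20%, against 16.7% of all genes). It rose by 0.38 on the log2 scale (standard error 0.0997, adjusted p = 0.023), a call lost in 4 of 12 other settings, among them without siNC library 2 and without siPRR11 library 2. FPR2, the formyl peptide receptor, held reads in siNC library 1 alone, at 0.0245 CPM, and was not tested. TLR2 was at 0.918 and 0.517 CPM in siNC and 0.647 and 0.374 CPM in siPRR11, with overlapping groups.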

How the data were processed

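Per the labels and methods, libraries were made with a stranded mRNA kit from 2 siNC and 2 siPRR11 samples, and groups and replicate numbers were taken from the sample titles. According to their notes and methods, the authors trimmed with Trimmomatic 0.36, used STAR for alignment (GRCh38) and featureCounts of Subread 1.5.1 for counting. The deposited counts per gene were taken to be raw. The authors also deposited RPKM values. The annotation release is not given in the sources used here.

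Members and lists were chosen with earlier results of these data known. edgeR 4.0.16 (R 4.3.3) was run on the counts with TMM, filterByExpr and condition as the only term, giving 21630 genes tested and 14729 left out. The standard error is the log2 fold change divided by the square root of F. Alternatives used limma 3.58.1 with a variance trend, DESeq2 1.42.0 and the changes given in the closing section. Fits without 1 library assume that the lone library varies like the other group. The gene tests were tested on simulated data. Named were the members, PRR11, up to 5 called genes and the most abundant gene of each list, and the 3 nearest genes to IL6, SAA1 and IL6R. Beside marker genes, CNTF, OSM, IL27, IL31, ADAM10, FGA, FGG, C3, IL1A, IL1B, IL18, IL1R2, TNF, FPR2, TLR2 and the genes that differ between libraries 1 and 2 were named after their values had been seen. A few listed genes were not analysed here. The most abundant gene of 1 list is not reported here. At these depths a floor of 3 reads equals 0.0324 to 0.0508 CPM.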

Additional observations from a re-analysis of the deposited data

How the results depend on the processing

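With RLE normalization and DESeq2 the same 5 members were called as in the main test, and likewise with at least 10 counts in every library, where SAA2 was not tested. Over all genes, 3622 were called in the main test, 1775 by limma on log2(RPKM + 1), 1878 by limma on log2(RPKM + 0.1), 6553 at an unadjusted p-value under 0.05, and between 2217 (without siPRR11 library 1) and 4251 (without siNC library 1) with a library left out. Of the members, limma on log2(RPKM + 1) called 2 (IL6R and LIF), beside 1775 of the 21630 genes. With a library left out, the log2 fold change of IL6 ranged from -1.41 to 0.02 and that of SAA2 from 1.05 to 4.32. Of the other pathway genes, 17 were called in the main test, 26 without a filter on low counts, 31 at an unadjusted p-value under 0.05, and between 16 and 25 with a library left out. As deposited RPKM, which carry no TMM factor, OSMR in siPRR11 was 12 in place of 11.8 CPM per kilobase. The other members were likewise higher as RPKM in siPRR11, and all members were lower as RPKM in siNC. The cause of the differences in calls between settings was not tested.

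The replicate numbers mark no shared culture or day in the labels, so pairing rests on the numbers alone. Deviations of same-numbered libraries from their group means correlated over 14193 genes (r = 0.48, genes being no independent replicates). With the replicate block, 6988 genes were called over all genes, 36 of the other pathway genes, and 8 members, where SAA2, IL6 and IL6ST were added.

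Only 2 libraries stand behind each group, and SAA2, with 30 reads in siNC, is limited by depth.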
